A study of Mus musculus with 504 samples.

Results

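P10 denotes cells sorted from mammary tumours of mice as positive for GFP with little surface EpCAM, compared here with P18, the tumour cells of the same mice that had kept mCherry and were high in EpCAM. The members are the libraries whose labels give a Tnc-line animal (TENA), the population P10 and a passed quality control, 25 of the 504 samples of the series and 25 of the 39 P10 wells. They came from 4 animals: 7 from TENA2462, 7 from TENA2483, 4 from TENA2517 and 7 from TENA2524. The P18 libraries that passed numbered 55 of 60, from those 4 animals and TENA2560. All of these mice carried MMTV-PyMT, MMTV-Flpo, Tnc-CreERT2 and the reporter RC::FrePe. The polyoma middle T oncogene is expressed from the mammary MMTV promoter, a Flp recombinase from the same promoter turns on mCherry, and a Cre that needs tamoxifen is expressed from Tnc and swaps mCherry for GFP. Every mouse, P18 included, received tamoxifen from week 9 onward, 2 mg at a time and 2 times weekly, and its tumours were taken at week 13 or 14. The labels call P10 high in GFP, negative for mCherry and low in EpCAM, and P18 negative for GFP, high in mCherry and high in EpCAM. Each library is a pool of 5 cells copied to full-length cDNA by the Smart-seq2 method, so a library can hold cells of several kinds.

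Epithelial cells hold together through E-cadherin, claudins and desmosomes and carry EpCAM on their surface. In an epithelial-to-mesenchymal transition (EMT) they lose these contacts, take up vimentin and matrix genes and can move, and tumour cells are often found part of the way, with traits of both states. Tnc encodes tenascin C, a matrix protein made at wound edges, in tumour stroma and by tumour cells in such intermediate states. Because the swap to GFP is permanent, GFP reports that the Tnc promoter was once active enough to make Cre, not that Tnc is transcribed at the time of sorting. The comparison asks how GFP-positive cells with little EpCAM differ in their RNA from mCherry cells of the same tumours.

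The P10 libraries were shallower and poorer in genes than the P18 libraries. P10 totals ran from 313655 to 9524984 counts with a median of 3171174, and P18 totals from 3232190 to 13414012 with a median of 5878479. The median number of genes detected was 7924 in P10 (2824 to 14289) and 14140 in P18 (10018 to 15936), and 5710 and 10139 after each library was thinned to 300000 counts. By animal the P10 medians were 8606, 5462, 4782.5 and 12396 genes, in the order TENA2462, TENA2483, TENA2517 and TENA2524, which is kept for all values of P10 in what follows. P18 values follow that order with TENA2560 last. Protein-coding genes took a median of 33.8% of the counts of a P10 library (3.66 to 56.1) and 45.8% of a P18 library (30.2 to 79.1). Of the 14 P10 wells that failed quality control, 8 were from TENA2517, 5 from TENA2462 and 1, its only one, from TENA2560. TENA2524 was sequenced on lane 2 and the other animals on lane 1, both populations of an animal on the same lane.

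Epithelial transcripts were found in most P10 libraries and not in all, and the share depended on the gene. Krt8, a keratin of luminal epithelium, stood at 10 CPM (counts of a gene scaled to a library total of 1000000) or more in 18 of the 25 P10 libraries (72.0%, exact 95% interval 50.6 to 87.9) and in 55 of 55 P18 libraries. Of the 25 P10 libraries, Epcam reached 10 CPM in 20, Krt18 in 19, Cdh1 in 14 and Cldn4 in 13, and each did in 55 of 55 P18 libraries. R2 of TENA2483 had Krt8 at 392 CPM with 0 CPM of Krt18, Epcam, Cdh1 and Cldn4. Ptprc, which encodes the leukocyte surface protein CD45, reached 10 CPM in 4 P10 libraries, all 4 below 10 CPM for Krt8, and in 0 of 55 P18 libraries (interval up to 6.49%). The remaining 3 P10 libraries lay below 10 CPM for both genes. Of these, R4 of TENA2483 was near the threshold for both, with Krt8 at 7.36 CPM and Ptprc at 9.51 CPM. It also had Krt18 at 259 CPM and Epcam at 65.3 CPM. At the threshold of 10 CPM, all 7 libraries of TENA2462 and all 7 of TENA2524 held Krt8 without Ptprc. TENA2483 gave 4 with Krt8, 1 with Ptprc and 2 with neither at that level. TENA2517 gave 3 with Ptprc, 1 with neither and none with Krt8. In P16, the GFP-positive cells of medium EpCAM, 25 of 26 libraries held Krt8 alone, and in P15, which lack EpCAM, 12 of 12 held Ptprc alone. The intervals cover counting error over libraries only, since libraries of an animal are not independent. Values that rest on TENA2517 and on library R5 of TENA2483 are therefore given animal by animal.

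**Figure D1:**
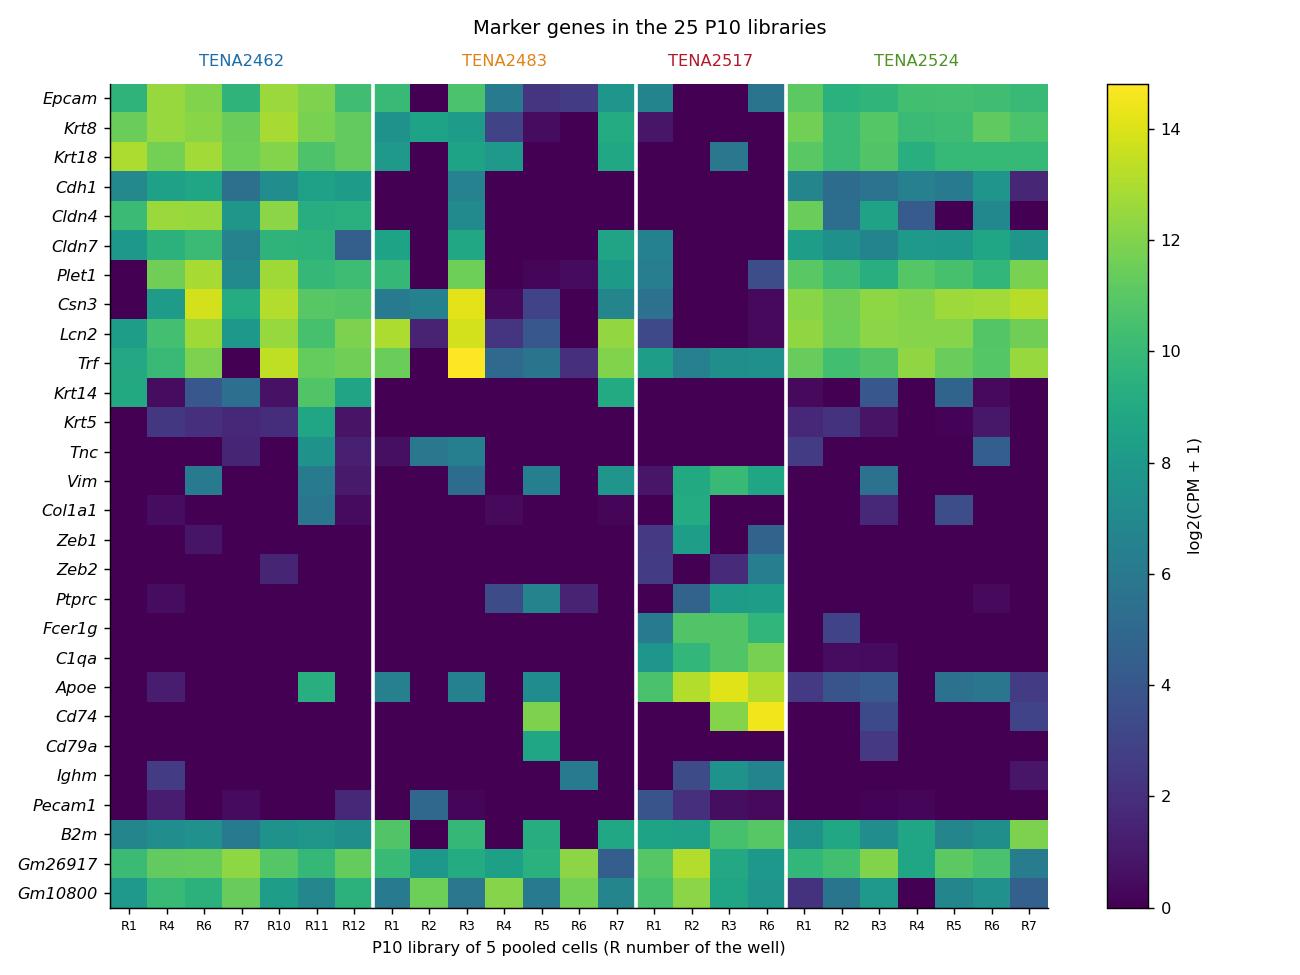
Levels of marker genes in each of the 25 P10 libraries, as log2(CPM + 1), with 1 column per library of 5 pooled cells, grouped by animal, and 1 row per gene. Krt8, Krt18 and Cldn7 are lit in every column of TENA2462 and TENA2524 and in some of TENA2483, while Cldn4 and Krt14 are dark in some columns of TENA2524. In TENA2517 Fcer1g, C1qa and Apoe are lit in every column and Ptprc in 3 of 4.

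For the tests, counts were summed per animal and population, and the 43 sums of both mouse lines of the series, in which Cre is driven by Tnc or by Cdh2, were fitted together in edgeR with the animal as a block. Of 33768 genes tested, 1 was called higher in P10 than in P18 at an adjusted p below 0.05 (0.00296%) and 0 were called lower (0%), by edgeR's quasi-likelihood test with Benjamini-Hochberg adjustment. At an unadjusted p below 0.05, 1551 genes were higher (4.59%) and 1228 lower (3.64%). Other methods gave more calls. DESeq2 called 1314 higher and 903 lower (3.89% and 2.67%), voom called 5564 and 1017 (16.5% and 3.01%), and a fit that gave each library the same weight called 227 and 2318 (0.672% and 6.86%). With only libraries of at least 1000000 counts, edgeR called 5 and 2 (0.0149% and 0.00594%). The same edgeR test on the P10 and P18 sums alone called 0 and 0. Where values are described without a call, the sums of the populations are compared directly: in 1566 of the genes tested (4.64%) all 4 P10 sums lay below all 5 P18 sums, and in 279 (0.826%) all lay above. Among the 7030 genes with a mean of at least 10 CPM in P18 these were 622 (8.85%) and 103 (1.47%), a filter that by its form favours lower values in P10. Against the P18 sum of the same animal, 3561 of the 33768 genes tested were lower in P10 in all 4 animals and 642 were higher. Statements below of a direction in 4 of 4 animals are to be read beside these counts. The median fitted log2 fold change over all genes, P10 minus P18, was -0.22 (-0.16 with genes unread in 1 population at their bound). It was 0.11 with RLE scaling and with DESeq2, 0.32 with voom and -0.79 in the P10 and P18 sums alone, so fold changes are to be read against these shifts. Levels below are CPM of the sums. Fold changes are fitted values on the log2 scale with their standard errors. In sums of pooled cells, fewer cells expressing a gene and less RNA per cell cannot be told apart.

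Most of the genes that respond to interferon stood lower in P10 than in P18, 11 of 18 in all 4 animals, though none passed the test. Over all 33768 genes tested, 3561 were lower in all 4 animals. Type I and type II interferons signal through JAK kinases to STAT proteins, which then switch on a set of antiviral genes, among them IRF7, which in turn raises interferon production. Of the 18 genes of this set that were followed, all were tested and 0 were called. Their median fold change was -2.89, beside -0.22 for all genes, and 4 of them were lower and 0 higher at an unadjusted p below 0.05. In 9 of 18 all P10 sums lay below all P18 sums, beside 4.64% of all genes tested, and in 8 of the 12 that averaged at least 10 CPM in P18, beside 8.85% under the same filter. Leaving out the 4 libraries with Ptprc gave 10 of 18, while the count over all genes went from 1566 to 2271. Leaving out any 1 animal gave 9 to 12 of 18, with 1795 to 3861 over all genes. By animal the median difference of log2(CPM + 1) was -2.49, -2.23, -3.78 and -1.56. It was below 0 also in TENA2462 and TENA2524, whose libraries all held Krt8 and none Ptprc at 10 CPM or more.

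Promoters of 4 of the 9 genes without overlap are shown, because the factors of this response bind a known element and a reader can see where it is present and where it is not. The sequences are the 250 bases before the start of transcription in RefSeq on GRCm38.p6, 5′ to 3′ on the strand of the gene. Capitals mark each match to GAAANNGAAA or its reverse complement TTTCNNTTTC, a core of the element bound by the complex of STAT proteins with IRF9. Overlapping matches run together.
Isg15: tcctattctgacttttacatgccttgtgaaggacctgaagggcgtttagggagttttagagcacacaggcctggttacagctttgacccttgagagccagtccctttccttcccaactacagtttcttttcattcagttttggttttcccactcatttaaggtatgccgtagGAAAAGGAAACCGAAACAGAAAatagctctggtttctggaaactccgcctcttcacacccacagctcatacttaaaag
Ifit3: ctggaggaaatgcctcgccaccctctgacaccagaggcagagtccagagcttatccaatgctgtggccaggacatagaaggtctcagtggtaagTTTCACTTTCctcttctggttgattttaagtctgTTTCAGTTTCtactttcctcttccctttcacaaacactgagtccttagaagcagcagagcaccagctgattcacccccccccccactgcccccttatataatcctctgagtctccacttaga
Stat2: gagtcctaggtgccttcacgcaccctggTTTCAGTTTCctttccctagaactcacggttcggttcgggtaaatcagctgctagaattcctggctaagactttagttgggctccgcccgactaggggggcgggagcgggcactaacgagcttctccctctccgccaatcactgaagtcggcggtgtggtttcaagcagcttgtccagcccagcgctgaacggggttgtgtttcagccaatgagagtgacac
Irf7: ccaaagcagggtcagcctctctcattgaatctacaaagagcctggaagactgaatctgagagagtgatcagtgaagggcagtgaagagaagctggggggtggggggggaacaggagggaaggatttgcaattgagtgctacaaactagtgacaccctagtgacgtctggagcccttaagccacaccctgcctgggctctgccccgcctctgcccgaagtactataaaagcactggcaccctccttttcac
They lie at chr4:156200819-156201068 (minus strand) for Isg15, chr19:34583279-34583528 (plus) for Ifit3, chr10:128270248-128270497 (plus) for Stat2 and chr7:141266425-141266674 (minus) for Irf7. Isg15 holds 3 overlapping matches, Ifit3 holds 2 and Stat2 holds 1. For Irf7 these letters are not in the window. Of the 18 interferon genes 13 were found in the RefSeq table and 8 of the 13 held a match, beside 3.463% of the 27025 genes in it. Of the 9 genes without overlap 6 were found and 3 held a match, and of the 9 others 7 were found and 5 held one. Of the 24 epithelial adhesion genes 13 were found and 1 held a match.

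Isg15 encodes a small protein that is attached to others as ubiquitin is. It stood at 0, 3.08, 0 and 3.75 CPM in P10 and 11.0, 18.2, 27.1, 17.6 and 16.9 CPM in P18. Both animals with Isg15 reads in P10 lay below the lowest P18 sum (fold change -3.75 ± 1.98, edgeR adjusted p = 0.635). Ifit3, whose protein binds foreign RNA together with its relatives and which may share reads with its near copy Ifit3b, had 0 reads in P10 and 4.51, 8.44, 66.6, 7.12 and 1.52 CPM in P18. In reads pooled over animals, with TENA2517 the highest in P18, it was at least 9.00 lower on the log2 scale against a floor of 3 counts over the P10 sums. Irf7 stood at 8.97, 25.1, 2.33 and 15.8 CPM in P10 and 62.0, 120.0, 142, 71.1 and 80.5 CPM in P18. The highest P10 value of Irf7 was less than the lowest P18 value, in each animal and across animals (fold change -2.88 ± 1.68, adjusted p = 0.667).

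Stat2, a signal carrier of the pathway itself, was nearly absent from P10, at 0.125, 0.418, 0 and 0.156 CPM, and stood at 7.90, 8.35, 8.47, 12.7 and 5.26 CPM in P18 (fold change -5.20 ± 1.86, adjusted p = 0.501). Usp18, a protease that removes ISG15 and damps the receptor, was at 0, 0, 0 and 2.24 CPM against 21.7, 16.4, 34.0, 18.0 and 11.6 CPM. Ifi27, the most abundant of the set, was at 76.2, 48.8, 41.7 and 157 CPM in P10 and 220.3, 289, 257, 432 and 341 CPM in P18, with the smallest standard error of the set (fold change -1.92 ± 0.59, unadjusted p = 0.0029, edgeR adjusted p = 0.473). Rtp4, Xaf1 and Ifi44 also had all P10 sums below all P18 sums, with P10 ranges of 0.648 to 29.1, 0 to 8.59 and 0 to 10.9 CPM and P18 ranges of 30.1 to 98.2, 18.4 to 56.6 and 13.2 to 49.1 CPM.

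Not every gene of the set was low. Oas1a, which makes the messenger that activates RNase L, was at 8.91, 0, 41.0 and 35.6 CPM in P10 and 17.7 to 27.3 CPM in P18. Bst2, which tethers budding virus, was at 6.29, 24.7, 0 and 6.07 CPM in P10 and 1.71 to 9.40 CPM in P18, and Ifit1 reached 19.1 CPM in TENA2483, above the P18 sum of that animal. The chemokine gene Cxcl10 was at most 0.0521 CPM in either population. Tests that weight the data otherwise called several members lower: Ifit3 and Stat2 with DESeq2 (adjusted p = 1.58e-13 and 0.0058), Isg15, Ifit3, Stat2, Usp18 and Ifi27 with voom (0.00578 to 0.0459), and Isg15, Irf7, Stat2, Usp18, Ifi27, Rtp4, Xaf1 and Ifi44 with equal weight of libraries (0.0138 to 0.0394). The shares of all genes that these tests called lower were 2.67%, 3.01% and 6.86%. No other setting called any of these 9 genes.

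By library, the summed level of the 18 genes was 0 to 520.0 CPM in P10, with a median of 99.2, and 209.5 to 2947 CPM in P18, with a median of 582. Of the 25 P10 libraries 19 lay below the lowest P18 library: 5 of 7 in TENA2462, 6 of 7 in TENA2483, 3 of 4 in TENA2517 and 5 of 7 in TENA2524. Other lists of the same libraries were shifted as well. The number below the lowest P18 library was 17 for the luminal list, 16 for the mitochondrially encoded genes, 15 for the adhesion genes, 14 each for ribosomal protein genes and MHC class I, and 8 for glycolysis. P10 libraries also had fewer genes detected and a smaller protein-coding share than P18 libraries, and the part of these in the interferon result was not tested.

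In P16 the levels of the interferon genes spread widely between animals. Mean P16 levels over 4 animals (± SD) were 13.7 ± 17.9 CPM for Isg15, 38.3 ± 51.4 CPM for Irf7, 11.1 ± 14.5 CPM for Stat2 and 108 ± 36.8 CPM for Ifi27. In P15, over 3 animals, Isg15 had 0 reads, and Irf7 averaged 1.43 ± 1.71 CPM, Stat2 8.48 ± 9.42 CPM and Ifi27 85.5 ± 27.9 CPM. The P16 sum of TENA2483 is 1 library, since 11 of its 12 P16 wells failed quality control, and the other P16 sums hold 12, 7 and 6 libraries. The differences between P15 and P10 were not tested.

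Genes of antigen presentation on MHC class I, many of which interferon also drives, had a median fold change of 0.03. Of 11 tested, 0 were called and 0 had all P10 sums below all P18 sums. B2m, the light chain of class I, was at 175, 737, 1349 and 1216 CPM in P10 and 845, 1360.2, 2146, 2118 and 1236 CPM in P18, lower in 4 of 4 animals (fold change -0.81 ± 0.58, adjusted p = 0.734). Tapbp, which loads peptide, was at 128, 343, 404 and 363 CPM against 183 to 361 CPM, with overlapping groups. The list summed to 1282, 3437, 3263 and 7251 CPM in P10 and 2131 to 6455 CPM in P18. The value of TENA2524 rested mostly on its library R7, at 22616 CPM, and was 2252 CPM without it, with B2m at 359 CPM. That of TENA2517 was 1609.5 CPM without R6.

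The 1 gene called between P10 and P18 was Gm26917, a long non-coding RNA on chromosome 17 (39843013 to 39846341, GRCm38, plus strand). It stood at 2670.1, 1311, 869 and 2102 CPM in P10 and 153, 105, 124, 65.0 and 297 CPM in P18, higher in 4 of 4 animals with no overlap (fold change 3.70 ± 0.48, edgeR adjusted p = 0.000686). By library it ranged from 20.6 to 8640.1 CPM in P10, with a median of 1093, and from 12.2 to 869 CPM in P18, with a median of 90.1. Of the 25 P10 libraries 16 lay above the highest P18 library, and 7 of 7, 4 of 7, 4 of 4 and 6 of 7 lay above the highest P18 library of their own animal. The call was lost without TENA2462, TENA2517 or TENA2524, without the block, with failed libraries added and in the fit of the P10 and P18 sums alone (adjusted p 0.0591 to 0.767), with fold changes from 3.13 to 4.09 over these and the other settings. Single libraries moved the level of an animal. TENA2483 stood at 613 CPM without R6, and TENA2517 at 542 CPM without R2 and 1504 CPM without R6. Refitted without each of these libraries, in alternatives added after its values were seen, the gene was still called, with fold changes of 3.34, 3.61 and 3.81 (edgeR adjusted p = 0.00393, 0.00263 and 2.24e-04).

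Gm26917 lies next to a block of ribosomal RNA in the annotation. The rRNA gene CT010467.1 (39846353 to 39848827, minus strand) begins just past its end and overlaps 2 further non-coding genes, Gm42418 and AY036118, and whether the counting used strand is not given in the sources used here. Gm42418 stood at 158268, 275811, 127519.7 and 255036 CPM in P10 and from 44698 to 196520.3 CPM in P18, higher in 4 of 4 animals with overlapping groups (fold change 0.54 ± 0.29, adjusted p = 0.634). CT010467.1 had a fold change of 0.54 ± 0.29. A high level of Gm26917 was not particular to P10: library medians were 1669 CPM in P16, 1032 in P15, 709 in P05, 677 in P09, 517 in P17 and 287 in P22 of the same line, and 81.6 in P18 and 343 in P15 of the Cdh2 line. The 17 empty wells held 398 counts of Gm26917 in all, 388 of them in 1 well.

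**Figure D2:**
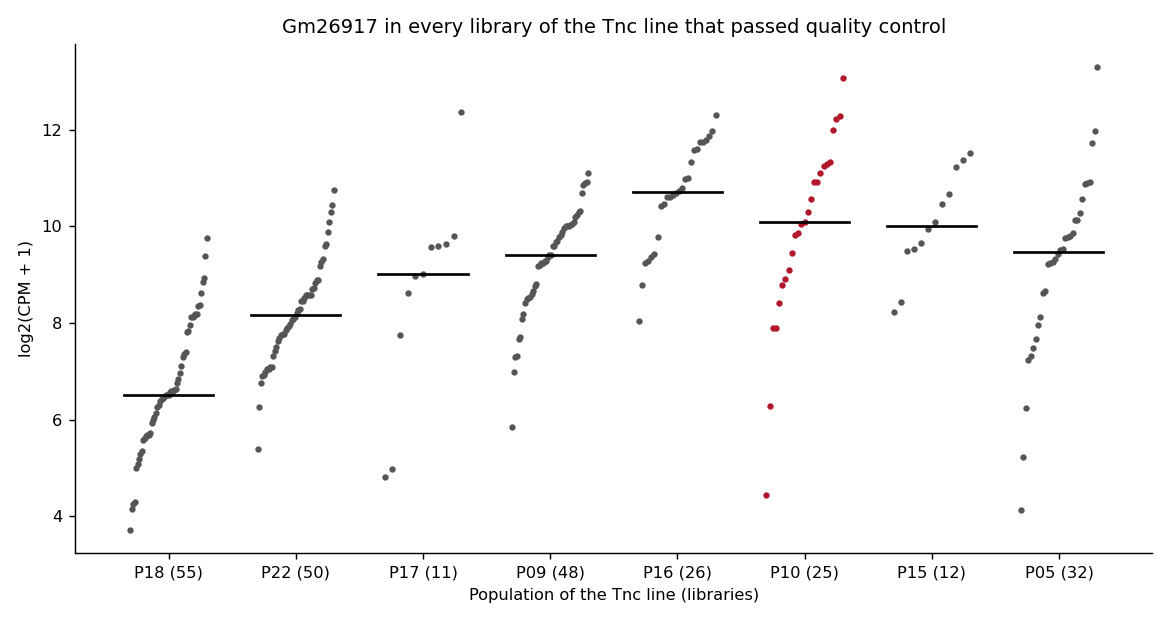
Gm26917 in every Tnc-line library that passed quality control, as log2(CPM + 1), by population with the number of libraries in brackets, sorted by value, with a bar at the median. P18 has the lowest median and P10, in red, lies in the range of the other GFP-positive populations and of P05.

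Of the 20 genes with the smallest p, 18 were higher in P10 and 9 had predicted-gene (Gm) symbols, 7 of these on chromosome 2 or 9. Gm10800, on chromosome 2, was at 932, 1904, 615 and 113 CPM in P10 and 39.6, 19.1, 8.84, 4.14 and 12.4 CPM in P18 (adjusted p = 0.286). Slc34a2, a phosphate transporter of secretory epithelium, was at 31.3, 57.0, 228 and 40.8 CPM in P10 and 1.53, 1.94, 3.23, 2.25 and 7.26 CPM in P18, higher in 4 of 4 animals (fold change 4.88 ± 1.09, adjusted p = 0.39). Mylip, a ubiquitin ligase that removes the LDL receptor, was at 0, 0, 0 and 0.156 CPM in P10 and 7.57, 11.9, 7.49, 9.19 and 3.32 CPM in P18 (fold change -7.71 ± 1.78, adjusted p = 0.39). Coro1a, an actin-binding protein of leukocytes, was at 0.436, 163, 742 and 4.61 CPM in P10 against at most 0.0417 CPM in P18 (adjusted p = 0.286). These 4 were picked after their values were seen. With only libraries of at least 1000000 counts, Gm10800 and Slc34a2 passed (edgeR adjusted p = 0.0386 and 0.045). DESeq2 and voom called all 4 (adjusted p 3.51e-04 or less, except 0.00133 for Coro1a with voom), and equal weight of libraries called all but Coro1a (0.0107 to 0.0193).

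The transcript of EpCAM, the protein used in the sort, was lower in P10 as well. Epcam (chromosome 17, 87635979 to 87651129) stood at 3915, 648, 38.0 and 1706 CPM in P10 and 4395, 4235, 4531, 3421 and 6275 CPM in P18. It was lower in P10 in 4 of 4 animals, by little in TENA2462 and to near absence in TENA2517 (fold change -1.69 ± 1.14, adjusted p = 0.718). In P10 libraries it ranged from 0 to 6157 CPM with a median of 840, and in P18 libraries from 1425 to 10544 CPM with a median of 4367. The cells were gated on EpCAM, so this difference is a check of the sort and not a finding.

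The other genes of epithelial contact differed widely between the P10 animals. Of 24 adhesion and junction genes 0 were called, the median fold change was -1.05, and 1, Crb3, had all P10 sums below all P18 sums (4.17%, beside 4.64% of all genes). The median difference by animal was 0.09, -1.36, -4.71 and -0.02, near 0 in TENA2462 and TENA2524 and far below in TENA2517. In TENA2524 members went either way, its summed level was below its own P18 (5147 against 7206 CPM) and 4 of its 7 libraries lay below the lowest P18 library. Crb3, an apical polarity protein, was at 75.4, 5.43, 0 and 47.0 CPM in P10 and 82.4, 86.8, 93.3, 78.9 and 123 CPM in P18 (adjusted p = 0.908). Summed over the list the level was 12461, 2522, 206 and 5147 CPM in P10 and 7206 to 14579 CPM in P18, and 1432 CPM in TENA2483 without R3.

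Cdh1, which encodes E-cadherin, was at 279.6, 28.2, 0 and 91.4 CPM in P10 and 216, 163, 113, 105 and 163 CPM in P18 (fold change -1.34 ± 1.46, adjusted p = 0.878). TENA2462 was above its own P18 and the other 3 animals below. The tight junction gene Cldn4 was at 3179, 39.4, 0 and 805 CPM in P10 and 3009, 2166, 2594, 1262 and 3842 CPM in P18 (fold change -2.17 ± 1.62). Cldn7 was at 622, 293, 13.1 and 318 CPM in P10 and 731, 1006, 973, 609 and 1093 CPM in P18, lower in 4 of 4 animals (fold change -1.60 ± 1.15, adjusted p = 0.738).

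Keratins of simple epithelium followed the same split. Krt8 was at 4858, 343, 0.130 and 2473 CPM in P10 and 5242, 3775, 4863, 1925 and 4715 CPM in P18 (fold change -1.16 ± 1.32, adjusted p = 0.89), and its partner Krt18 at 4081, 314, 15.4 and 1792 CPM in P10 and 4328, 3153, 5036, 1372 and 4711 CPM in P18 (fold change -1.11 ± 1.42). TENA2524 was higher for both in P10 than in its own P18, and TENA2517 had 1 read of Krt8 over its 4 libraries. Krt7 was lower in 4 of 4 animals, at 252, 47.0, 34.5 and 167 CPM against 768, 152, 284, 206 and 161 CPM. Krt19, high in TENA2462 and TENA2524 at 1016 and 565 CPM, was above the P18 sums of both (576 and 87.0 CPM).

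**Figure D3:**
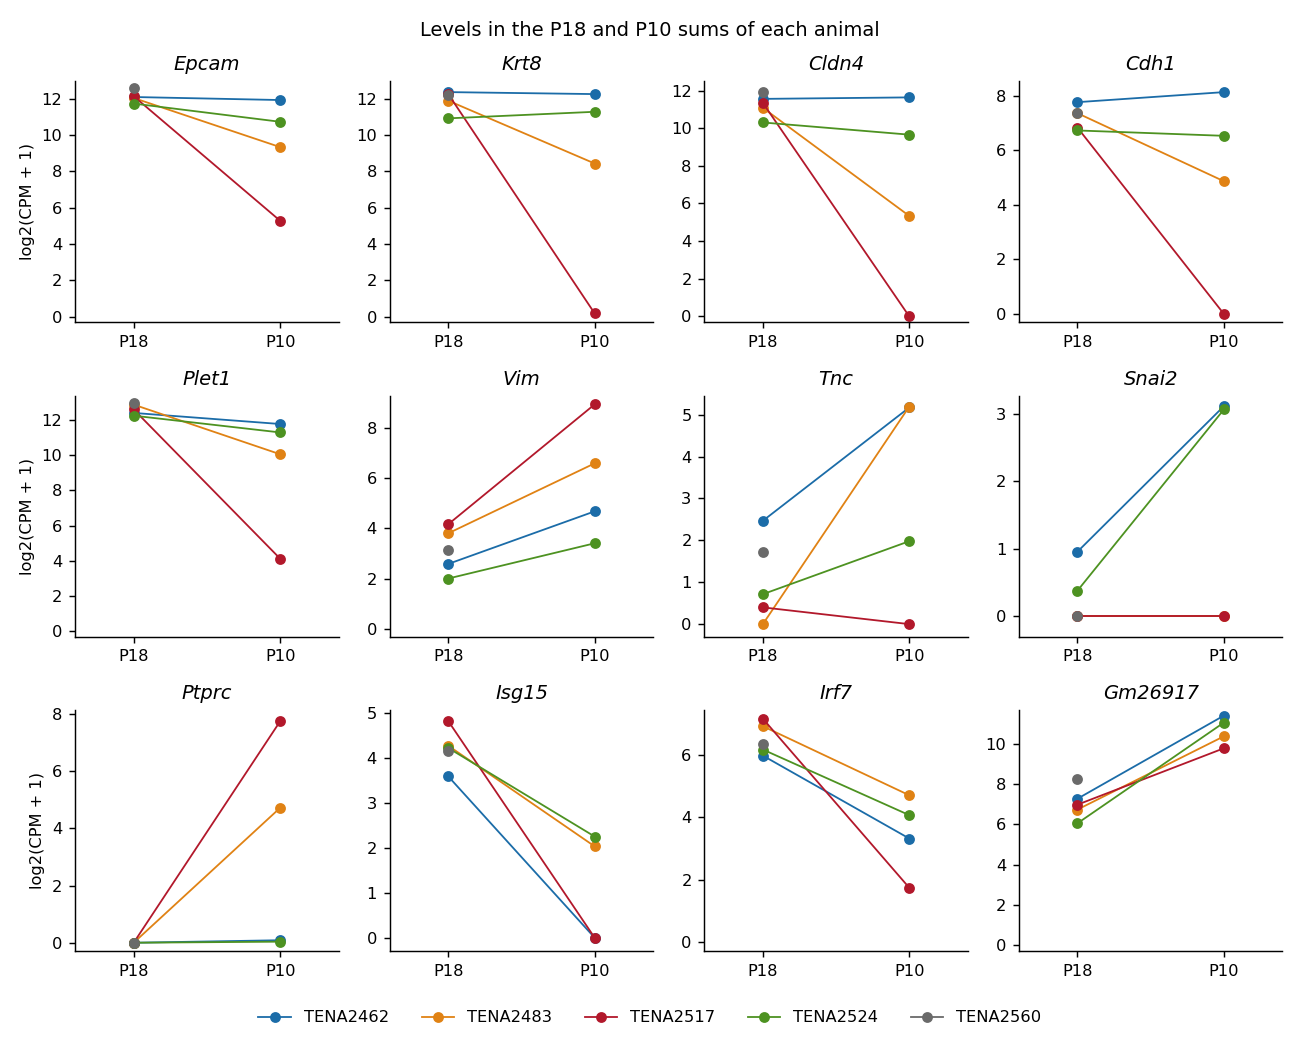
Levels of 12 genes in the P18 and P10 sums of each animal, as log2(CPM + 1), with lines that join both sums of 1 animal; TENA2560 has no P10 sum. Isg15 and Irf7 lie lower and Gm26917 lies higher in P10 in all 4 animals, while Krt8, Cldn4 and Cdh1 part the animals.

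Among the 19 tested genes for transcription and splicing factors of epithelium 0 were called and the median fold change was -0.88. All P10 sums lay below all P18 sums in 3 of them (15.8%, beside 4.64% of all genes), among them Ovol1 and Spdef. Ovol1, a repressor of Zeb1, was at 9.22, 9.25, 0 and 20.2 CPM in P10 and 48.6, 56.0, 32.0, 29.3 and 49.5 CPM in P18 (adjusted p = 0.743). Spdef, an ETS factor of luminal cells, had 1 read in P10 and 2.65, 4.85, 8.90, 3.17 and 6.59 CPM in P18, a pooled log2 ratio of -9.04 with an exact 95% counting interval from -14.34 to -6.56 (edgeR adjusted p = 0.473). DESeq2, voom and equal weight of libraries called Spdef lower (adjusted p 1.2e-05 to 0.0295).

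The splicing regulator Esrp1 was at 44.8, 21.6, 0 and 33.8 CPM in P10 and 38.4, 36.0, 31.6, 35.0 and 41.1 CPM in P18 (fold change -0.76 ± 1.39). The ETS factor Ehf was at 160.1, 108, 6.09 and 278 CPM against 129.8, 151, 151, 168 and 189 CPM, and Elf3 at 154, 78.9, 0 and 16.5 CPM against 63.9, 149, 246, 30.1 and 209 CPM. TENA2517 was near or at 0 for all 3, and the other animals overlapped P18 (adjusted p = 0.987, 1 and 0.967). The direction for Ehf turned with RLE scaling, DESeq2, voom and without TENA2517. Surface proteases and their inhibitors had a median fold change of 0.19, with 0 of 8 called. Spint2, an inhibitor of matriptase, was at 602, 691, 15.6 and 780.0 CPM against 719, 734, 734, 984 and 857 CPM, lower in 4 of 4 animals, and St14, matriptase itself, at 253, 186, 0 and 240.4 CPM against 58.8 to 91.7 CPM, higher in the 3 animals other than TENA2517.

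When every library had the same weight, whatever its depth, 9 of the 28 fixed genes were called lower, beside 6.86% of all genes: Epcam, Krt8, Cldn4, Cldn7, Plet1, Elf3, Ehf, Esrp1 and Spint2 (limma, adjusted p 0.00858 to 0.0475, log2 differences of -6.65 to -2.71). No other setting called any of these 9.

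Luminal and secretory genes varied widely between the P10 libraries. Plet1, a surface protein of luminal progenitors, was at 3471, 1057, 16.5 and 2492 CPM in P10 and 5366, 7439, 6151, 4816 and 7806 CPM in P18, with all P10 sums below all P18 sums (fold change -2.05 ± 0.97, unadjusted p = 0.0431, edgeR adjusted p = 0.592). Ly6a, which encodes SCA-1, was at 0, 1.36, 0 and 3.83 CPM in P10 and 365, 9.31, 100.2, 42.6 and 36.1 CPM in P18, also without overlap (fold change -5.18 ± 2.49, adjusted p = 0.598). These were 2 of the 14 tested genes of the luminal list, beside 4.64% of all genes, and the list's median fold change was -0.68 with 0 called. Kit, the receptor of luminal progenitors, was at 373, 102, 0 and 35.6 CPM against 16.9 to 76.6 CPM, higher in the 3 animals other than TENA2517. The list summed to 7825, 10301, 262 and 5696 CPM in P10 and 9923 to 18682 CPM in P18, and 17 of 25 P10 libraries lay below the lowest P18 library. The TENA2483 sum rested mostly on R3, at 22170.0 CPM, and was 4652 CPM without it. Plet1 overlaps the antisense gene Plet1os, and without strand their reads cannot be told apart.

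Milk genes summed to 30552, 24578, 401 and 20075 CPM in P10 and 15455 to 27549 CPM in P18, so that TENA2462 alone exceeded the P18 range and TENA2517 held the least. The TENA2483 sum rested mostly on R3, at 65908 CPM, and was 6223 CPM without it, while 4 of its 7 libraries held at most 144 CPM. Most of the TENA2462 sum was Ltf, which encodes the milk protein lactoferrin, at 16475 CPM against 3139 CPM in its P18. The casein gene Csn3 was at 4852, 5785, 7.00 and 7857 CPM against 3251 to 11841 CPM and the iron carrier gene Trf at 3953, 10064, 167 and 4272 CPM against 2449 to 7181 CPM. Of 17 milk genes 0 were called (median fold change -0.54), and Muc1, an apical mucin, was the 1 with all P10 sums below all P18 sums, at 3.80, 0, 0 and 29.2 CPM against 34.8 to 92.5 CPM (adjusted p = 0.721).

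Basal and contractile genes gave no common direction. The 11 basal keratin and p63 genes had a median fold change of 1.41, with 0 called and 2 higher at an unadjusted p below 0.05, and summed to 898, 237, 0.648 and 196 CPM in P10 and 53.4 to 573 CPM in P18. The sum of TENA2462 was 396 CPM without R11 and that of TENA2483 87.3 CPM without R7. Krt14, the basal keratin, was at 427, 157, 0 and 9.14 CPM in P10 and 254, 45.3, 55.4, 10.3 and 11.7 CPM in P18, a direction that turned without TENA2483 and under 3 other settings. In 8 of 25 P10 libraries and 32 of 55 P18 libraries Krt14 reached 10 CPM, with medians of 0 and 24.8 CPM. Acta2, smooth muscle actin, was low in both populations, at 3.24, 2.14, 7.13 and 2.60 CPM in P10 and 1.62, 0.958, 0.746, 0.472 and 1.31 CPM in P18, and its sums were higher in 4 of 4 animals with no overlap (fold change 1.95 ± 1.32, adjusted p = 0.721). By library the direction was the reverse, with Acta2 medians of 0.38 CPM in P10 and 1.05 CPM in P18. Only 3 of 25 P10 libraries and 0 of 55 P18 libraries reached 10 CPM of Acta2, the highest at 166 CPM in R2 of TENA2517. Tagln, another smooth muscle gene, was lower without overlap, at most 0.0623 CPM in P10 and 6.68, 9.69, 0.923, 0.0726 and 8.80 CPM in P18 (adjusted p = 0.501). Of 11 contractile genes 3 had all P10 sums below and 1 above all P18 sums (27.3% and 9.09%, beside 4.64% and 0.826%), with a median of -0.14.

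Genes of the mesenchymal state differed by animal, and 0 of 26 were called (median fold change 2.60, 5 higher and 0 lower at an unadjusted p below 0.05). Vim, which encodes vimentin, was at 24.5, 94.5, 483 and 9.61 CPM in P10 and 5.01, 13.0, 16.9, 3.02 and 7.86 CPM in P18. It was higher in P10 in 4 of 4 animals, though TENA2524 overlapped P18 (fold change 3.17 ± 1.38, unadjusted p = 0.0292, edgeR adjusted p = 0.55). DESeq2 called it (adjusted p = 0.0386), and over the other settings it was not called. By library Vim reached 10 CPM in 9 of 25 in P10 (36.0%) and 12 of 55 in P18 (21.8%), with medians of 0 in both. The highest values were in the TENA2517 libraries with Ptprc, at 504, 1028 and 416 CPM, and leukocytes express Vim as well. In TENA2462 and TENA2524, where every library held Krt8, Vim reached 10 CPM in 2 of 7 and 1 of 7 libraries. In TENA2483 Vim was at 214 and 36.6 CPM in R7 and R3, which held Krt8, and at 84.4 CPM in R5, which held Ptprc. A pool of 5 cells does not show which of its cells carried Vim.

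Fn1, which encodes fibronectin, was at 0, 48.0, 66.4 and 0.156 CPM in P10 and 2.20, 0.792, 4.07, 0.496 and 0.0222 CPM in P18 (fold change 3.24 ± 2.28), and the direction turned without the Ptprc libraries (-0.086). S100a4 was at 0, 0, 109 and 5.42 CPM against 2.95, 0.812, 2.20, 0.629 and 0.334 CPM and Lgals1, a galectin, at 36.4, 211, 785 and 88.9 CPM against 113, 125, 189, 216 and 186 CPM. TENA2517 was the highest for all 3, and the Lgals1 direction turned under 5 settings. Without R6 TENA2517 stood at 0.51 CPM for Fn1 and 0 CPM for S100a4, and without R7 TENA2483 stood at 0 CPM for Fn1. Cdh2, which encodes N-cadherin, had 0 reads in P10 and at most 0.271 CPM in P18, too few reads to compare. The metalloproteinase gene Mmp14 was at 37.1, 8.20, 70.1 and 0.495 CPM against 0.0445 to 9.78 CPM, and the hyaluronan receptor Cd44, at 259, 70.2, 48.3 and 59.6 CPM against 282, 77.0, 92.5, 104 and 72.8 CPM, was lower in 4 of 4 animals.

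Of 13 EMT transcription factors 0 were called and the median fold change was 0.07. Snai1, a repressor of Cdh1, was at 0.374, 9.35, 0 and 29.6 CPM in P10 and 36.0, 38.7, 37.8, 39.1 and 13.8 CPM in P18, lower in 4 of 4 animals (fold change -3.13 ± 1.83, adjusted p = 0.67). Its relative Snai2 was the reverse in TENA2462 and TENA2524, at 7.66, 0, 0 and 7.37 CPM against 0.943, 0, 0, 0.302 and 0 CPM, carried by 2 of 25 P10 libraries at 10 CPM or more and 0 of 55 in P18 (fold change 3.95 ± 2.71, adjusted p = 0.729). Snai3 had 0 reads in P10 and 3.45, 4.21, 4.63, 0.339 and 3.76 CPM in P18. In reads pooled over animals it was at least 6.72 lower on the log2 scale (edgeR adjusted p = 0.467), and DESeq2 and voom called it lower (0.0175 and 0.00629).

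Zeb1 and Zeb2 were found in P10 almost wholly in TENA2517, at 24.5 and 36.7 CPM. Most of it lay in libraries with Ptprc: Zeb1 at 309 CPM in R2 and 25.4 CPM in R6, and Zeb2 at 79.5 CPM in R6. R1, without a Ptprc read, held 4.40 CPM of Zeb1 and 5.28 CPM of Zeb2. In the other 3 animals both were at most 0.374 CPM, and without TENA2517 the fold change of Zeb1 was -2.16. Twist1 had 0 reads in both populations. Sox9, a factor of mammary progenitors, was at 1268, 78.3, 22.8 and 141 CPM in P10 and 514, 394, 449, 162 and 501 CPM in P18, above P18 in TENA2462 only.

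Tnc, whose promoter drives the switch to GFP, was at 35.0, 35.6, 0 and 2.94 CPM in P10 and 4.52, 0, 0.320, 0.641 and 2.28 CPM in P18. It was higher in 3 of 4 animals and had no read in TENA2517 (fold change 3.26 ± 2.12, adjusted p = 0.709). In TENA2462 the direction rested on library R11, without which Tnc stood at 0.673 CPM, below the P18 sum of that animal. Without R3 Tnc stood at 13.7 CPM in TENA2483, still above its P18 sum. By library 4 of 25 in P10 held 10 CPM or more (16.0%, exact 95% interval 4.54 to 36.1) and 2 of 55 in P18 (3.64%, 0.444 to 12.5). Those 4 were R11 of TENA2462 at 189.5 CPM, R2 and R3 of TENA2483 at 58.9 and 82.8 CPM, and R6 of TENA2524 at 20.6 CPM. The other 21 P10 libraries, sorted as GFP-positive like those 4, held Tnc below 10 CPM, and the median over libraries was 0 in both populations.

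R11 of TENA2462, the library with the most Tnc, held Krt8 at 3604 CPM, Krt14 at 1787, Krt5 at 435, Vim at 71.3 and Col1a1 at 55.9 CPM, with no read of Ptprc. It carried keratins of luminal and basal cells, a mesenchymal gene and a collagen gene in 1 pool of 5 cells. It was singled out after its values were seen.

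The list of partial EMT, to which Tnc belongs, had a median fold change of 1.57 over 17 genes, with 0 called. Tgfbi and Emp3 were highest in TENA2517, at 545 and 313 CPM, and macrophages express both. The laminin gene Lamb3 (35.9, 15.2, 0.648 and 36.1 CPM against 2.35 to 14.2) was higher in the 3 animals with Krt8. Itgb6, the epithelial integrin that activates TGF-beta, had all P10 sums below all P18 sums, at 5.42, 0.0522, 0 and 3.91 CPM against 18.5, 9.04, 8.43, 15.6 and 20.4 CPM (adjusted p = 0.606). TGF-beta ligands, receptors and targets had a median of -0.16. The feedback inhibitors Smad7 (66.0, 0, 1.17 and 8.88 CPM against 19.8 to 76.6) and Skil (64.8, 20.6, 15.4 and 27.4 CPM against 48.2 to 91.7) were lower in 4 of 4 animals, and the receptor Tgfbr2 (21.5, 41.8, 119 and 57.7 CPM against 8.31 to 38.2) was higher in 4 of 4.

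Of 27 collagen and matrix genes 0 were called and the median fold change was 1.34. Col1a1, the main collagen of fibroblasts, was at 10.3, 0.104, 22.5 and 2.76 CPM in P10 and 0.0589, 0.479, 0.0888, 0.242 and 1.07 CPM in P18, higher in 3 of 4 animals (fold change 6.78 ± 1.81, adjusted p = 0.412), and DESeq2 called it (3.81e-06). In TENA2517 it came from R2, at 555 CPM, the shallowest library with 313655 counts. Nid1, a basement membrane protein, was at 0.0623, 6.22, 8.16 and 1.95 CPM in P10 with 0 reads in P18, at least 8.18 higher on the log2 scale (edgeR adjusted p = 0.45), and was called by DESeq2 and voom. The marker lists for fibroblasts and pericytes, which make these proteins in tumours, summed to 11.3, 1.88, 22.7 and 8.62 and 38.9, 9.61, 37.7 and 28.2 CPM in P10 and 0.221 to 7.70 and 9.12 to 35.6 CPM in P18. The fibroblast sum of TENA2517 was 0.136 CPM without R2. Endothelial markers summed to 5.73, 20.8, 93.6 and 4.38 CPM in P10, above the 1.91 to 3.53 CPM of P18 in all 4 animals, with the highest library, R2 of TENA2517, at 800.2 CPM. Their part in the matrix values was not tested.

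Leukocyte markers set TENA2517 and, less so, TENA2483 apart. Ptprc was at 0.0623, 25.3, 213 and 0.0260 CPM in P10 with 0 reads in P18, at least 11.22 higher on the log2 scale (edgeR adjusted p = 0.412), and DESeq2 and voom called it (1.43e-19 and 0.0303). All 10 leukocyte markers had fold changes above 0 and 8 an unadjusted p below 0.05, with 0 called. Their sum was 225, 1088, 4377 and 121 CPM in P10 and 70.6 to 139 CPM in P18. The sum of TENA2483 was 306 CPM without R5. That of TENA2462, also above the P18 range, was 136.5 CPM without R12. In TENA2462, as in TENA2483, 2 libraries exceeded the highest P18 library for this list. Macrophage markers summed to 1568, 341, 21872 and 521 CPM in P10 and 703 to 1521 CPM in P18, where Cd14 made up most. Fcer1g, a signalling chain of macrophages, was at 0, 0, 941 and 1.69 CPM in P10 (adjusted p = 0.407).

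The 3 TENA2517 libraries with Ptprc had the genes of macrophages. C1qa, a complement gene of tissue macrophages, was at 889.5, 1804 and 3481 CPM in R2, R3 and R6, and Apoe at 8739, 17244 and 8417 CPM. R1 of that animal, with no Ptprc read, also held C1qa (223 CPM) and Apoe (1537 CPM) beside Epcam (103 CPM). R5 of TENA2483 had genes of B cells, with Cd79a at 416 CPM, Cd79b at 278 CPM and Cd74 at 3825 CPM. MHC class II genes, which present peptides on such cells, summed to 37.0, 2145, 25278 and 18.5 CPM in P10 and 9.89 to 29.7 CPM in P18. Without R6 the TENA2517 sum was 2510.2 CPM, and without R5 the TENA2483 sum was 4.71 CPM. T and NK cell markers summed to 2.12, 27.6, 24.4 and 0.807 CPM in P10 and 0.0355 to 1.15 CPM in P18, and Cd3e had 0 reads. The sum of TENA2483 was 8.60 CPM without R5 and that of TENA2517 4.85 CPM without R6. Adipocyte and erythroid lists summed to at most 8.41 and 5.48 CPM in P10 and 1.95 and 4.33 CPM in P18.

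Some genes of stress and of early response stood lower in P10. Of 18 tested 0 were called, the median fold change was -0.68, 4 were lower at an unadjusted p below 0.05 and 3 had all P10 sums below all P18 sums (16.7%, beside 4.64% of all genes and 8.85% of those with at least 10 CPM in P18). The 3 were Zfp36, Dnajb1 and Hspa8. Zfp36, which destroys cytokine transcripts, was at 159, 117, 8.16 and 300.5 CPM in P10 and 482, 1059, 1169, 459 and 1263 CPM in P18 (fold change -2.43 ± 0.99, adjusted p = 0.533). The constitutive chaperone Hspa8 was at 204, 225, 402 and 412 CPM against 589, 702, 920.2, 642 and 1155 CPM (fold change -1.30 ± 0.45, adjusted p = 0.5), and its partner Dnajb1 at 139, 91.0, 52.1 and 86.2 CPM against 181 to 350.4 CPM. The inducible Hspa1a and the early genes Fos and Jun overlapped between the populations.

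Mitochondrially encoded transcripts summed to 4215, 14894, 6902 and 5590.1 CPM in P10 and 12449.8 to 17154 CPM in P18. All 13 had fold changes below 0, with a median of -0.80, 4 at an unadjusted p below 0.05 and 0 called, and TENA2483 lay within the P18 range. mt-Co1, a subunit of cytochrome c oxidase, was at 1378, 3987, 1700.4 and 1985 CPM in P10 and 4054, 4388, 4714, 5312 and 4884 CPM in P18 with no overlap (adjusted p = 0.517). All 22 ribosomal protein genes also had fold changes below 0 (median -0.51, with 0 called), and the sums overlapped between the populations. The glycolysis list had a median of 0.17.

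Cell cycle genes were low in both populations, at 46.1, 256, 206 and 262 CPM in sum in P10 and 85.2 to 168 CPM in P18, with 0 of 24 called (median 0.49) and 3 with all P10 sums below all P18 sums (12.5%, beside 4.64%). Without its library R5 the sum was 56.3 CPM in TENA2483 and 54.7 CPM in TENA2524. Mki67, a mark of cycling cells, was at 0.747, 2.35, 0.648 and 6.51 CPM in P10 and 0.192, 0.0625, 0.497, 3.19 and 0.367 CPM in P18, higher in 4 of 4 animals (fold change 1.47 ± 1.85, adjusted p = 0.915). Pcna, the replication clamp, was lower in 4 of 4 with no overlap, at 12.3, 4.18, 11.5 and 19.6 CPM against 37.9, 35.0, 36.4, 35.2 and 37.9 CPM (fold change -1.69 ± 0.98, adjusted p = 0.667).

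P10 and P16, the GFP-positive cells of low and of medium EpCAM, were compared for 28 fixed genes, in the same fit and with 4 animals each, TENA2483 by 1 P16 library. None of the 28 was called, and of all 33768 genes 0 were (0%; smallest adjusted p 0.479, 1610 genes at an unadjusted p below 0.05). DESeq2 and voom were not run for this contrast. Epcam averaged 1577 ± 1704 CPM (SD) in P10 and 2591 ± 1342 CPM in P16 (fold change -0.66 ± 1.13). Krt8 averaged 1919 ± 2244 and 3373 ± 2990.3 CPM (fold change -0.41 ± 1.33, 0.072 without TENA2517). Of the fixed genes Fcer1g, with 0 reads in P16, had the smallest p, and Lgals1, with a fold change of 1.79 ± 0.71, the next (edgeR adjusted p = 0.933 for both). Tnc averaged 18.4 ± 19.6 CPM in P10 and 18.0 ± 32.6 CPM in P16, where 1 animal, TENA2517, held 66.8 CPM.

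Between the 4 animals P10 itself was not uniform. In TENA2462 and TENA2524 the median differences from their own P18 of adhesion genes, keratins and epithelial factors lay between -0.10 and 0.50 on the log2(CPM + 1) scale, though Epcam, Crb3, Cldn7 and the adhesion sum were lower in TENA2524 than in its P18. TENA2483 was lower for each of these lists, and TENA2517 far lower, at -4.71, -8.22 and -4.08. Of the 21 lists of cell state, the interferon, mitochondrial and contractile lists were those whose median difference lay below 0 in all 4 animals, the contractile list by only -0.02 in TENA2462, and no list had a median above 0 in all 4.

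**Figure D4:**
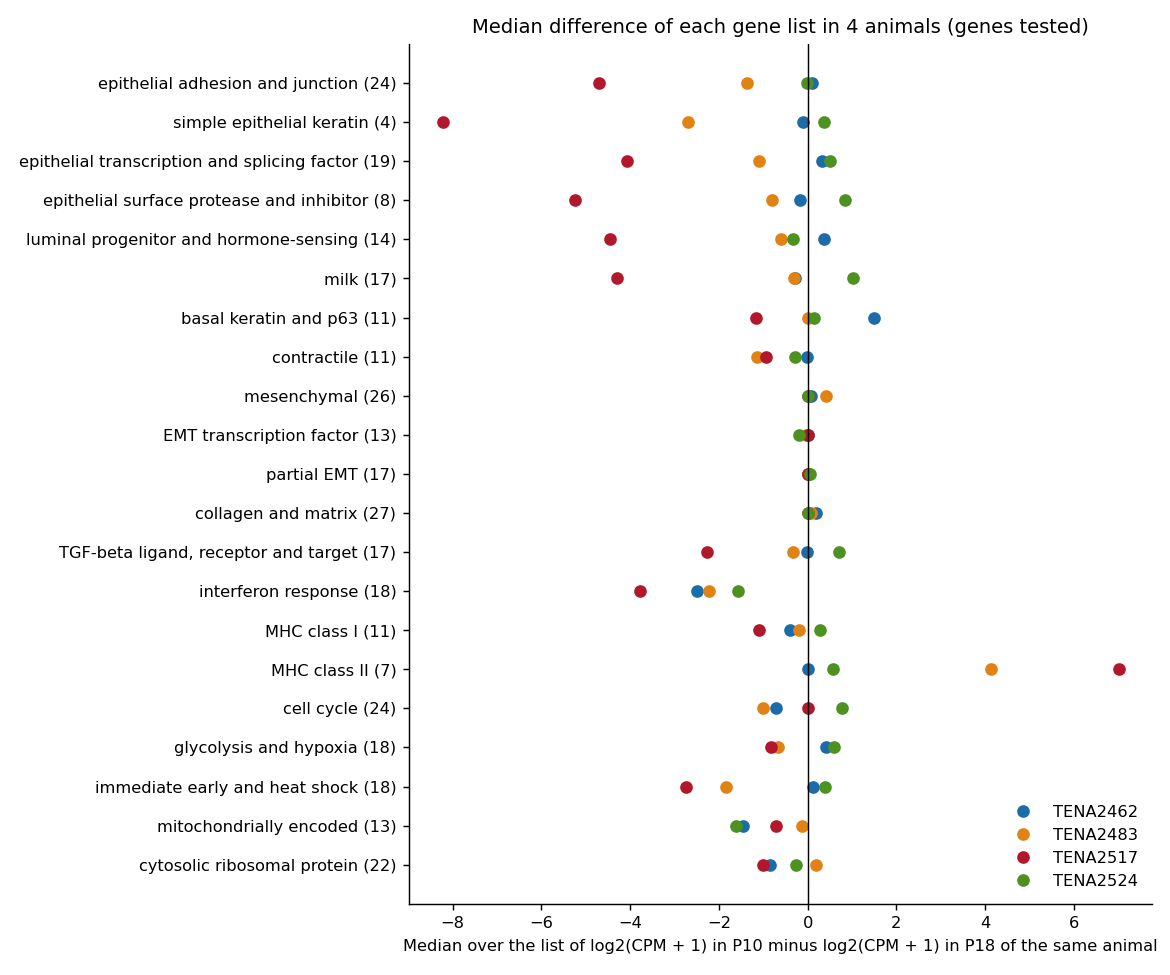
Median over each gene list of log2(CPM + 1) in P10 minus that in P18 of the same animal, with 1 point per animal and the number of genes tested in brackets. The 4 interferon points lie between -3.78 and -1.56, while those of the epithelial lists run from about 0 in TENA2462 and TENA2524 to below -4 in TENA2517.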

How the data were processed

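The deposited table holds raw read counts per gene for each library, made by the authors with no UMIs. Per the submitters' processing notes the tools were STAR, SAMtools and featureCounts of the Subread package, with the mm10 build. The sources used here give neither versions nor the strand setting. Of 504 samples 17 were empty wells, 152 failed the labelled quality control and 335 passed. For each animal and population the counts of the passed libraries were added up. All 43 sums, from the Tnc and Cdh2 lines, were fitted with edgeR 4.0.16 (R 4.3.3; filterByExpr, TMM scaling, quasi-likelihood F test, Benjamini-Hochberg adjustment over 33768 genes, called below 0.05), with the animal as a block, since both populations of an animal come from the same tumours. The alternatives used DESeq2 1.42.0, limma 3.58.1 and other selections of libraries. CPM of sums use TMM factors, while CPM of single libraries use their totals. A gene without reads in a population has a bound from 3 counts over that population. The bound uses reads pooled over animals, so it need not hold in each animal. Scripts were tested on simulated data. Intervals for shares are exact at 95% and cover counting error only, as PCR copies are not independent molecules.

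Named genes are 28 genes fixed for both contrasts, members of gene lists whose sums did not overlap, and the contrast's leading genes; some of them are not reported here. The comparison, the lists and the 28 genes were chosen with earlier results of these data known. Gene positions are from GENCODE M21 (GRCm38) and promoters from RefSeq. No column lacked a sample, and no 2 libraries held identical values.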

Additional observations from a re-analysis of the deposited data

Results flagged for a closer look

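Of 122 series of values, over the P10 sums (4 animals) or the P18 sums (5 animals), 20 had 1 animal whose gap to the nearest other was more than Dixon's 95% critical share of the whole range. For independent, normally distributed values chance gives this in about 1 of 20 groups. These series do not meet that condition. A gene read in a single animal always passes, and some of the genes are also members of the lists. The count of 20 is therefore not to be compared with that rate. Of the 20, 11 lay in P10 and 9 of those in TENA2517. TENA2517 stood above the other P10 animals for Ptprc (213 CPM), Fcer1g (941 CPM), Zeb1 (24.5 CPM), Zeb2 (36.7 CPM), Rgs5, a pericyte gene (16.6 CPM), and S100a4 (109 CPM). Several of these rested on 1 library. Without R6 TENA2517 stood at 0 CPM for S100a4 and 2.81 CPM for Zeb2, and without R2 at 12.5 CPM for Zeb1. Rgs5 reached 10 CPM in 1 of the 25 P10 libraries. The same animal stood above the others in the sums of MHC class II genes (25278 CPM), macrophage markers (21872 CPM) and dendritic cell markers (227 CPM). In P10 of TENA2483 the B and plasma cell markers summed to 932 CPM, and in P10 of TENA2462 the EMT transcription factors summed to 1402 CPM, most of it Sox9.

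In P18, TENA2462 stood above the others for Krt14 (254 CPM), Rgs5 (0.0147 CPM), the basal keratin and p63 list (573 CPM) and the partial EMT list (594 CPM). TENA2524 stood above the others for Zeb1 (1.5 CPM), Fcer1g (0.0726 CPM), Mki67 (3.19 CPM) and fibroblast markers (7.70 CPM), and below them for the EMT transcription factors (252 CPM).

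Among the P10 libraries that failed quality control, which enter only the alternative that includes failed libraries, R2 and R8 of TENA2462 held Krt8 at 14823 and 16591 CPM, above every P10 library that passed. The other 12 failed libraries held Krt8 below 10 CPM.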

How the results depend on the processing

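The number of genes called higher and lower in P10 depended on the test. Against 1 and 0 in the edgeR fit, DESeq2 called 1314 and 903, voom with quality weights 5564 and 1017, equal weight of libraries 227 and 2318, and libraries of at least 1000000 counts 5 and 2. Without the low-count filter 2 and 0 were called, and RLE scaling, the Tnc line alone and leaving out the Ptprc libraries gave 1 and 0. The fit of the P10 and P18 sums only, the fit with no replicate block and the inclusion of failed libraries gave 0 and 0. Leaving out 1 animal gave 0 to 1 higher and 0 lower. Gm26917 kept its direction in all 16 alternatives and its call in 10; with no replicate block its fold change was 3.55 (adjusted p = 0.146), and without TENA2462, TENA2517 and TENA2524 the adjusted p was 0.104, 0.0699 and 0.0591. Over 59 genes followed, 848 of 937 values kept their direction and side of the threshold, 63 were newly called (33 of them with equal weight of libraries) and 20 turned, in 9 genes. Those were Ehf (0.10 with RLE scaling, 0.087 with DESeq2, 0.081 with voom), Cdh2 (0.61 with voom) and Fn1 (-0.086 without the Ptprc libraries). Krt14 turned to -0.25 in the P10 and P18 sums only, -2.21 with equal weight and -0.17 with failed libraries. Lgals1 turned to -0.81 with voom, -0.01 in the P10 and P18 sums only, -1.90 with equal weight and -0.97 without the Ptprc libraries, and S100a4 to -0.58 both with voom and in the P10 and P18 sums only. With 1 animal left out, values ran from -0.70 to 0.046 for Ehf (highest without TENA2517), -2.16 to 7.77 for Zeb1, -2.47 to 13.71 for Rgs5 and -0.45 to 1.11 for Lgals1 (lowest without TENA2517), and from -0.38 to 0.98 for Krt14 and -0.23 to 2.67 for Pecam1 (lowest without TENA2483). The causes were not tested.

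Alternatives chosen after seeing the data followed the lists and the P16 contrast. The interferon median lay between -4.27 and -2.15, and 8 to 12 of 18 genes had all P10 sums below all P18 sums. That count over all genes ran from 946 to 6035. Of 526 list medians 215 moved by more than the spread between animals. Between P10 and P16, 0 of the 28 genes were called in the 12 alternatives run, and Krt8 ran from -1.40 to 0.072, the latter without TENA2517. DESeq2, voom, equal weight and the P10 and P18 sums only were not run for P16. Leaving out each P10 library in turn, also chosen after seeing the data, moved 47 of 103 list sums of an animal and 61 of 109 levels of a gene followed by over 1.5 times, among those of at least 20 CPM. Depth limits genes of low level, since P10 sums held 6957229 to 53780542 counts.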
